A study of Mus musculus with 18 samples.

Results

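Carbon tetrachloride (CCl4) is a solvent that liver cells turn into a reactive radical, and repeated doses give mice a scarred, cirrhotic liver. The comparison described here sets whole-liver RNA of 6 mice given CCl4 (the Cirrhosis group) against that of 6 mice given its carrier, corn oil (the Control group). These 12 libraries, of 18 in the series, were chosen by their treatment labels alone, and 21914 of the 54752 genes in the count table passed the filter on low counts and were tested. All mice were C57BL/6 males, 6 weeks old at purchase, with no transgene or other allele named. Control mice received corn oil into the peritoneum 2 times a week at 10 µl per g, and Cirrhosis mice received 10% CCl4 in corn oil at the same volume and schedule. Daily oral double distilled water went to both groups, and livers were taken after 12 weeks. Another group, which had CCl4 and Pien Tze Huang, a traditional Chinese medicine, is not compared here. Its libraries still entered the low-count filter, the TMM scaling, the average levels by which genes were picked and the estimate of the spread. The treatment protocol describes 45 mice, 15 per group, and the design text 18; how the 6 sequenced per group were picked is not stated. Albumin, the defining hepatocyte product, held 1.54% to 4.34% of the counts in each of the 12 libraries. The interval between the last injection and collection, and the hour of collection, are not given in the sources used here.

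The liver is built mostly of hepatocytes, which make plasma proteins, store and release glucose and fat, and take up and detoxify compounds from the blood. Around them lie sinusoidal endothelial cells, resident macrophages (Kupffer cells), vitamin A-storing stellate cells and bile duct cells. In chronic injury stellate cells turn into matrix-producing myofibroblasts, monocytes enter from the blood, duct-like cells spread, and the sinusoids take on the features of ordinary capillaries. The lists of genes below follow these roles, from the hepatocyte to the scar and the cells within it. In bulk RNA of a whole organ, fewer cells of a type and less RNA per cell cannot be told apart.

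The libraries held 62.5 M to 112 M counts. Reads from ribosomal RNA loci made up 48.0 ± 7.26% of the counts in Control and 38.8 ± 1.68% in Cirrhosis (SD, n = 6, two-sided exact permutation test, adjusted p = 0.0108), and outside them 24.5 M to 67.5 M counts remained per library. This class was set by symbol. Beside loci such as Gm42418 and CT010467.1 it takes in the mitochondrial mt-Rnr1 and mt-Rnr2 and the protein-coding gene Lars2. The share thus covers cytosolic and mitochondrial ribosomal RNA together. The TMM factors that scale the libraries ran from 0.578 to 0.930 in Control and from 1.21 to 1.37 in Cirrhosis. Scaling by library totals alone raised the median change of all genes from 0.015 to 0.73 on the log2 scale, and small falls then turned into rises, so every change below is relative to the TMM scale. On the second principal component Control replicates 7 and 8 were far from the other 4 of their group (9.12% of the variance), at -32.3 and -103 against 26.7 or more in those 4. Several results change without them, and those that change most are given with and without one or both. Levels below are CPM, counts scaled to a common library size with TMM, given as the lowest, highest and median of the 6 libraries. Changes are log2 fold changes, Cirrhosis minus Control, ± standard error. This standard error is an approximation derived from the test, the absolute change divided by the square root of the F statistic. A gene rose, fell or passed if its adjusted p was under 0.05, and "totals alone" marks a value scaled by library totals without TMM. Among the called genes named below the 6 libraries of each group did not overlap, apart from albumin, Clec4f, Fgf21, Gp1ba, Hdc, Herpud1, Hsp90b1, Lcn2, Mt1, Ngp, Pdia6, Plin2, Serpinb1a, Timd4 and Zfp36.

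Of the genes tested, 11073 differed between the groups, 50.5% of the total at an adjusted p under 0.05 (edgeR quasi-likelihood test, n = 6 per group). They split into 5591 that were higher in Cirrhosis (25.5%) and 5482 that were lower (25%). Nearly all lists below hold protein-coding genes, for which the nearer background is 31.9% higher and 28.3% lower. A change of at least 2-fold was more often a rise, with 22.2% of genes changed that much, 3117 higher (14.2%) and 1753 lower (8.0%). The 6 Cirrhosis libraries all lay above the 6 Control libraries in 3426 genes (15.6%) and all below them in 3220 (14.7%), together 30.3%. Under library totals alone the called genes split into 12923 higher and 1123 lower. Protein-coding genes were called higher in 31.9% and lower in 28.3% of cases, and long noncoding RNA (lncRNA) genes in 14.6% and 16.4% (31.1% in either direction).

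The Cirrhosis livers were not equally far from Control. Among the 3117 genes at least 2-fold higher, Cirrhosis replicate 3 was the lowest of the 6 Cirrhosis libraries in 1087 genes (34.9%), against 11.3% to 15.9% for each of the other 5. Among the 1753 genes at least 2-fold lower it was the highest of the 6 in 50.7%, while replicate 5 was the highest in 3.59%. Replicate 3 was thus the Cirrhosis liver nearest to Control and replicate 5 among the farthest, as they were along the first principal component (53.1% of the variance), at 65.4 and 106.

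**Figure D1:**
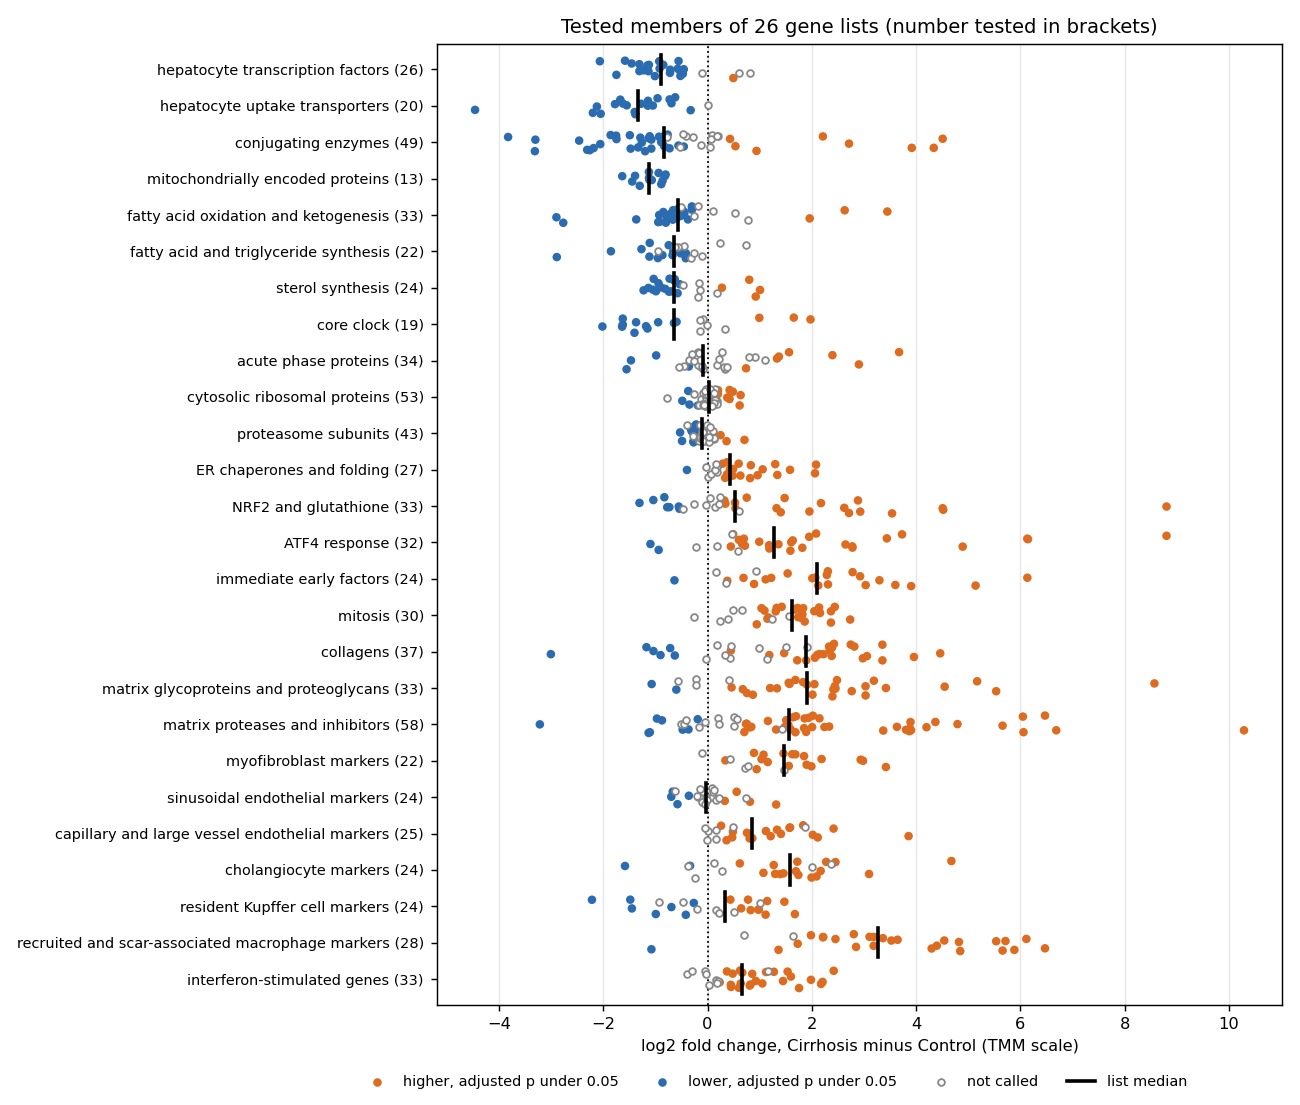
Log2 fold change, Cirrhosis against Control, of every tested member (points) of 26 gene lists, with the list median (bar) and the median of all genes tested (dotted line); filled points passed the adjusted p threshold of 0.05. Lists of hepatocyte functions lie mostly left of 0 and lists of stress, growth, scar and immune genes mostly right of it, with ribosomal proteins and sinusoidal endothelial markers near 0.

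Measured as shares of all counts, some abundant liver transcripts were lower and matrix and ribosomal protein transcripts higher. Major urinary protein genes, male pheromone carriers made by hepatocytes, held 3.25 ± 1.23% of the counts in Control and 0.287 ± 0.0530% in Cirrhosis. Clade A serpins, the secreted protease inhibitors of the alpha-1-antitrypsin family, went from 1.66 ± 0.294% to 1.11 ± 0.168%. Collagen genes went the other way, from 0.0855 ± 0.0123% to 0.234 ± 0.0211%, and cytosolic ribosomal protein genes from 0.420 ± 0.0735% to 0.740 ± 0.0715% (SD, n = 6). Each of these 4 differences passed a two-sided exact permutation test adjusted over 10 classes, with an adjusted p of 0.00866 for the serpins and 0.00541 for the others. The ribosomal protein share rose although their list was flat on the TMM scale, where its median was 0.021 and 38 of 53 members did not pass. Albumin held 2.78 ± 0.757% and 3.30 ± 0.621%, a difference that did not pass (exact permutation adjusted p = 0.255). On the TMM scale, however, albumin fell, and it was among the 8 called genes with the largest falls in mean CPM. Its direction thus depends on the scaling, and its levels overlapped between the groups.

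The largest gains in CPM were in Hspa5, the main chaperone of the endoplasmic reticulum, Actb, cytoskeletal actin, and Hspa8, the constitutive cytosolic chaperone. Actb ran from 442 to 568 CPM (median 508) in Control and from 706 to 1183 CPM (median 1028) in Cirrhosis, and Hspa8 ran from 331 to 457 CPM (median 376) in Control and from 489.8 to 1296 CPM (median 880.1) in Cirrhosis. The Cirrhosis libraries of both genes all lay above the Control libraries. Sqstm1 (p62, a receptor that delivers cargo to autophagosomes) changed by 1.32 ± 0.20, Ahnak, a giant scaffold protein under the plasma membrane, by 2.08 ± 0.19, and Myh9, non-muscle myosin, by 1.18 ± 0.086.

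The transcription factors that hold hepatocyte identity fell as a group. Of 26 tested, 22 fell and 1 rose, with a median of -0.88 against 0.015 over all genes. With totals alone 6 fell and 4 rose, with a median of -0.17. Hnf4a, the central hepatocyte nuclear receptor, ran from 418 to 480.3 CPM (median 462) in Control and from 295 to 342 CPM (median 315) in Cirrhosis. Its fall was small, at -0.52 ± 0.084, though the groups did not overlap, and it came out at 0.19 with totals alone. Cebpa, which keeps adult hepatocytes out of the cell cycle, ran from 141 to 194 CPM (median 156) in Control and from 45.8 to 73.9 CPM (median 71.1) in Cirrhosis, a change of -1.31 ± 0.12 (adjusted p = 9.5e-09, edgeR). Falls of similar or larger size were measured in Nr1i3 (CAR, a sensor of foreign compounds, -1.75 ± 0.17), Ppara (the fasting fat sensor, -1.22 ± 0.079) and Tbx3 (-2.06 ± 0.15). Foxa3 was the factor that rose, from a median of 32.7 to 47.6 CPM (0.49 ± 0.085).

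Genes of the growth hormone axis were mostly lower. Ghr, the growth hormone receptor, ran from 356 to 464 CPM (median 410.0) in Control and from 91.1 to 164 CPM (median 129.5) in Cirrhosis, a change of -1.69 ± 0.12 (adjusted p = 3.8e-10, edgeR). Igf1, the circulating growth factor that growth hormone induces in liver, changed by -0.90 ± 0.14, and Igfals, which stabilises it in blood, by -1.60 ± 0.15. The 6 Cirrhosis libraries lay below every Control library in all 3 genes. Igfbp1, a binding protein that withholds Igf1 from its receptor and is induced by fasting and stress, ran from 5.89 to 20.4 CPM (median 8.46) in Control and from 169 to 280.4 CPM (median 250.3) in Cirrhosis, a change of 4.53 ± 0.36. Of the 16 genes of the axis 9 fell and 3 rose (median -0.52, 0.18 with totals alone).

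Genes for the uptake and conjugation of blood-borne compounds fell widely. Among 20 sinusoidal uptake transporters 19 fell and none rose, with a median of -1.33. With totals alone 13 fell and 2 rose (median -0.62). Slco1a1, an organic anion carrier, ran from 134 to 309.6 CPM (median 260.1) in Control and from 4.71 to 15.7 CPM (median 11.7) in Cirrhosis, a change of -4.46 ± 0.29, the largest fall of the list. Slc10a1 (NTCP, the sodium-driven bile acid importer) ran from 201 to 268 CPM (median 231) in Control and from 38.2 to 98.2 CPM (median 72.2) in Cirrhosis, a change of -1.67 ± 0.17. Slc22a28, an organic anion carrier with close paralogs, changed by -2.12 ± 0.15. Of 49 tested glutathione, glucuronosyl and sulfo transferases, 30 fell and 8 rose (median -0.83), against 19 and 13 with totals alone (median -0.13). Ugt2b1, Ugt2a3 and Ugt3a1, which add glucuronic acid or related sugars, changed by -2.06 ± 0.13, -2.26 ± 0.16 and -1.86 ± 0.12. The glutathione transferases Gsta1 and Gstm3 went the other way: Gsta1 ran from 0.527 to 3.49 CPM (median 1.21) in Control and from 14.4 to 52.1 CPM (median 39.7) in Cirrhosis, a change of 4.51 ± 0.50 and Gstm3 changed by 2.71 ± 0.37. These families hold near-identical paralogs, so the split of reads between members is uncertain.

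Fat metabolism changed unevenly. In fatty acid oxidation and ketogenesis 24 of 33 genes fell and 3 rose (median -0.57, but 0.14 with totals alone). Cpt2 and Etfa, of the mitochondrial carnitine step and the electron transfer from fatty acids, changed by -0.92 ± 0.084 and -0.77 ± 0.084. Pdk4, a kinase that shuts pyruvate out of oxidation, rose instead and varied among mice: it ran from 1.65 to 3.30 CPM (median 2.05) in Control and from 7.23 to 49.5 CPM (median 20.4) in Cirrhosis, a change of 3.45 ± 0.40. In fatty acid and triglyceride synthesis 13 of 22 fell and none rose (median -0.64, 0.056 with totals alone). Mlxipl (ChREBP, which turns on fat synthesis in response to sugar) ran from 149 to 212 CPM (median 182) in Control and from 39.8 to 59.5 CPM (median 50.5) in Cirrhosis, a change of -1.85 ± 0.11 and Dgat2, which completes triglycerides, changed by -1.27 ± 0.088. The levels of Fasn, fatty acid synthase, overlapped between the groups and it did not pass (-0.45 ± 0.22).

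Genes of lipid droplets moved in both directions, 7 up and 12 down of 21 (median -0.56, 0.15 with totals alone). Fitm1, an endoplasmic reticulum protein that partitions fat into droplets, ran from 7.87 to 13.5 CPM (median 9.27) in Control and from 0.0597 to 0.145 CPM (median 0.119) in Cirrhosis, a change of -6.54 ± 0.40. Lpl, the lipase that frees fatty acids from lipoproteins and is low in adult hepatocytes, ran from 12.2 to 22.7 CPM (median 18.8) in Control and from 109 to 144 CPM (median 128) in Cirrhosis, a change of 2.81 ± 0.17, and Cd36, a fatty acid receptor, rose by 1.38 ± 0.13. Plin2, the main droplet coat protein, ran from 205 to 304 CPM (median 245) in Control and from 199.5 to 659 CPM (median 446) in Cirrhosis, a change of 0.82 ± 0.20; its groups overlapped through Cirrhosis replicate 3, at 199.5 CPM.

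In sterol synthesis and uptake 15 of 24 genes fell and 4 rose (median -0.64, 0.087 with totals alone). Sc5d, a late enzyme of the pathway, ran from 192 to 249 CPM (median 225) in Control and from 70.3 to 119 CPM (median 97.4) in Cirrhosis, a change of -1.23 ± 0.13. The apolipoprotein list, taken by symbol pattern, had 14 lower and 4 higher of 19 (median -0.63, 0.065 with totals alone). Apoa4, the apolipoprotein that rose, ran from 41.2 to 93.2 CPM (median 56.8) in Control and from 275 to 767 CPM (median 413) in Cirrhosis, a change of 3.0 ± 0.31, and its exons overlap those of 2 unnamed loci. The list's pattern also takes in Apobec1 (1.26 ± 0.11) and Apobec3 (1.35 ± 0.13), which are cytidine deaminases and not apolipoproteins. Apoa1 and Apoa2, of high-density lipoprotein, changed by -1.09 ± 0.15 and -1.25 ± 0.11.

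Glucose genes of the adult liver fell while the isoforms of other cells rose. Slc2a2, the hepatocyte glucose transporter, ran from 194 to 279.7 CPM (median 244) in Control and from 39.9 to 147 CPM (median 80.7) in Cirrhosis, a change of -1.48 ± 0.22, and Gys2 and Pygl, which build and break glycogen, changed by -1.41 ± 0.14 and -1.24 ± 0.15. Of 16 genes of gluconeogenesis and glycogen 11 fell and 2 rose (median -0.49, 0.22 with totals alone). Pkm, the pyruvate kinase of growing and non-hepatocyte cells, ran from 8.11 to 14.1 CPM (median 11.8) in Control and from 44.3 to 81.9 CPM (median 58.8) in Cirrhosis, a change of 2.45 ± 0.18, Hk2, an inducible hexokinase, changed by 2.36 ± 0.19 and Pfkp, the platelet form of phosphofructokinase, by 1.99 ± 0.15. All 3 lay above every Control library in all 6 Cirrhosis libraries. In the list of such isoforms 9 of 16 rose and 2 fell (median 0.85), the last being Pfkm (-0.83 ± 0.13) and Aldoc (-1.17 ± 0.28), the muscle phosphofructokinase and the brain aldolase.

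All 13 protein genes of the mitochondrial genome were lower in Cirrhosis, with a median of -1.11. Of them 10 fell without Control replicates 7 and 8 (median -0.96) and 2 with totals alone (median -0.40). mt-Co1, which encodes the catalytic subunit of cytochrome oxidase, ran from 6640.3 to 10701 CPM (median 9375) in Control and from 3646 to 4947 CPM (median 4049) in Cirrhosis, a change of -1.11 ± 0.20. As a share of all counts these genes held 1.24 ± 0.316% in Control and 0.963 ± 0.0742% in Cirrhosis (SD, n = 6), which did not pass the exact permutation test (adjusted p = 0.0866). Outside the ribosomal RNA loci the shares were 2.37% and 1.58%, and the difference passed (exact permutation adjusted p = 0.00325).

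Clock genes differed between the groups in both directions. Arntl (Bmal1, the activating arm of the clock) ran from 0.984 to 1.96 CPM (median 1.38) in Control and from 4.56 to 6.64 CPM (median 5.37) in Cirrhosis, a change of 1.97 ± 0.19. Dbp, an output factor that the activating arm drives, ran from 69.8 to 93.8 CPM (median 73.2) in Control and from 10.4 to 27.4 CPM (median 19.4) in Cirrhosis, a change of -2.02 ± 0.18, and Nr1d1 (Rev-erb alpha, which represses Arntl) changed by -1.63 ± 0.12. None of the 3 overlapped between groups, and the exons of Dbp and Nr1d1 overlap those of Sphk2 and Thra. Of 19 clock genes 11 fell and 3 rose (median -0.64, 0.079 with totals alone). These genes cycle through the day, and a difference in the hour of collection was not tested.

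**Figure D2:**
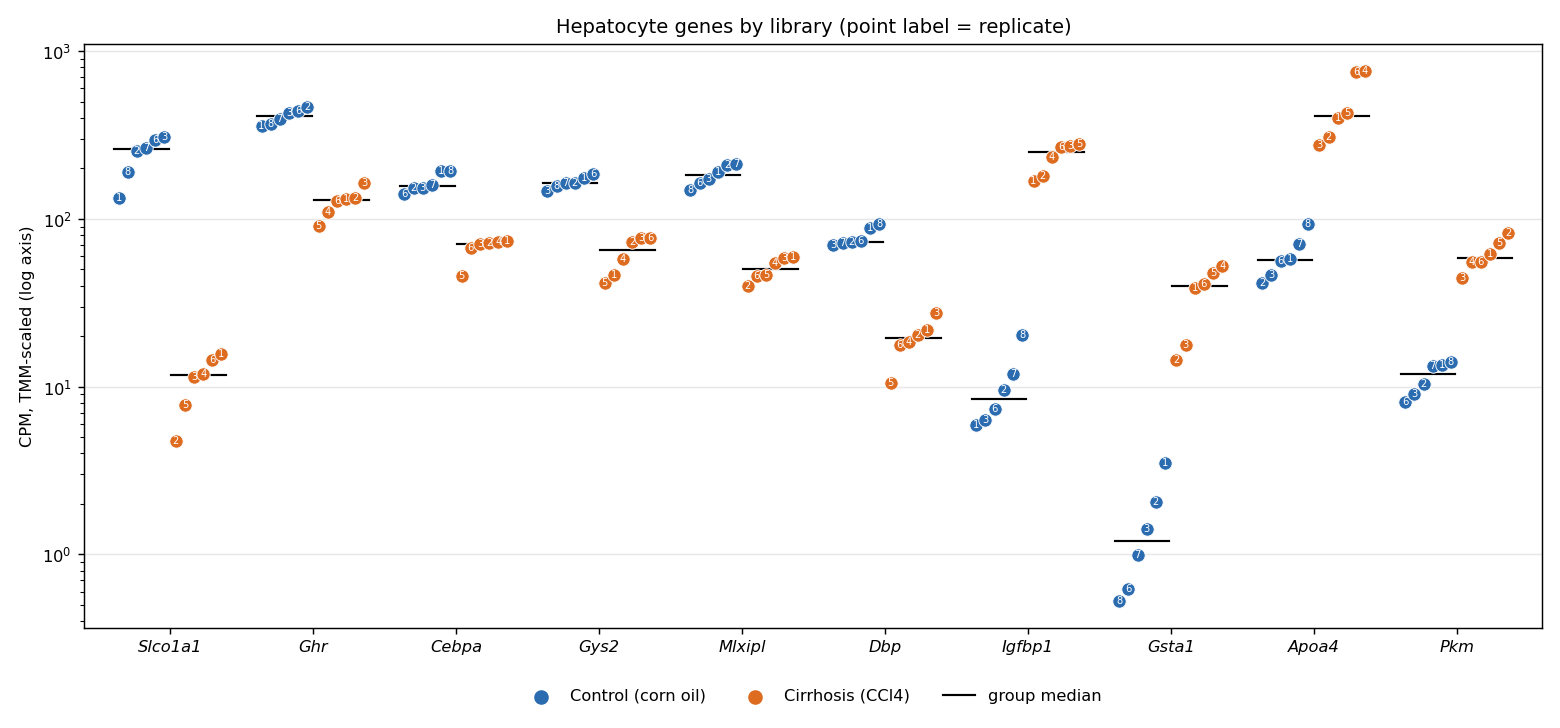
CPM (log axis) of 10 hepatocyte genes in each of the 12 libraries, Control in blue and Cirrhosis in orange, with the replicate number on each point and a bar at the group median. Slco1a1, Ghr, Cebpa, Gys2, Mlxipl and Dbp lie lower in all 6 Cirrhosis libraries, and Igfbp1, Gsta1, Apoa4 and Pkm higher.

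The acute phase proteins, which hepatocytes pour into plasma during inflammation, stood high in single mice of both groups. Of 34 members 7 rose, 4 fell and 23 did not pass (median -0.093, 0.69 with totals alone and 0.55 without Control replicates 7 and 8). Saa1, a major acute phase protein of the mouse, was at 709.8 and 1077 CPM in Control replicates 7 and 8 and between 13 and 15.7 CPM in the other 4 Control mice. In Cirrhosis it was at 321 and 962 CPM in replicates 1 and 2 and between 6.77 and 25.4 CPM in the other 4. Saa2 and Orm2, which were with Saa1 among the 6 genes with the widest spread among Cirrhosis libraries, were high in the same 2 Control mice and in Cirrhosis replicate 2: Orm2 was at 37.7 and 54.6 CPM in Control replicates 7 and 8, at 172 CPM in Cirrhosis replicate 2 and at 9.22 CPM or less in every other library. Between the groups Saa1 changed by -0.46 ± 1.40 and Orm2 by 0.92 ± 1.15, and neither passed. Without Control replicates 7 and 8 Saa1 changed by 4.05 (adjusted p = 0.0353, edgeR), and without Cirrhosis replicate 2 Orm2 changed by -1.73 (adjusted p = 0.127).

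Lcn2, a siderophore-binding protein of hepatocytes and neutrophils, did separate the groups for most mice. It was at 1.01 to 2.35 CPM in 4 Control mice, at 27.2 and 107 CPM in Control replicates 7 and 8, at 50.6 to 81.2 CPM in 5 Cirrhosis mice and at 689.8 CPM in Cirrhosis replicate 2. The change was 2.90 ± 1.15 (adjusted p = 0.0465, edgeR), 6.77 without Control replicates 7 and 8, 4.71 without Control replicate 8 alone, and 1.59 without Cirrhosis replicate 2, where the call was lost (adjusted p = 0.215). The call also ended when any 1 of Control replicates 1, 2, 3, 6 and 7 or Cirrhosis replicates 1, 5 and 6 was left out. Receptors and antagonists of inflammatory signals were steadier: Osmr, the oncostatin M receptor, ran from 5.33 to 9.23 CPM (median 6.17) in Control and from 18.7 to 46.9 CPM (median 35.2) in Cirrhosis, a change of 2.40 ± 0.21 and Il1rn, the interleukin 1 receptor antagonist, changed by 3.67 ± 0.39. Serpina3k, an abundant plasma serpin, and Saa4, a serum amyloid made without inflammation, fell by 1.55 and 1.47 on the log2 scale.

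**Figure D3:**
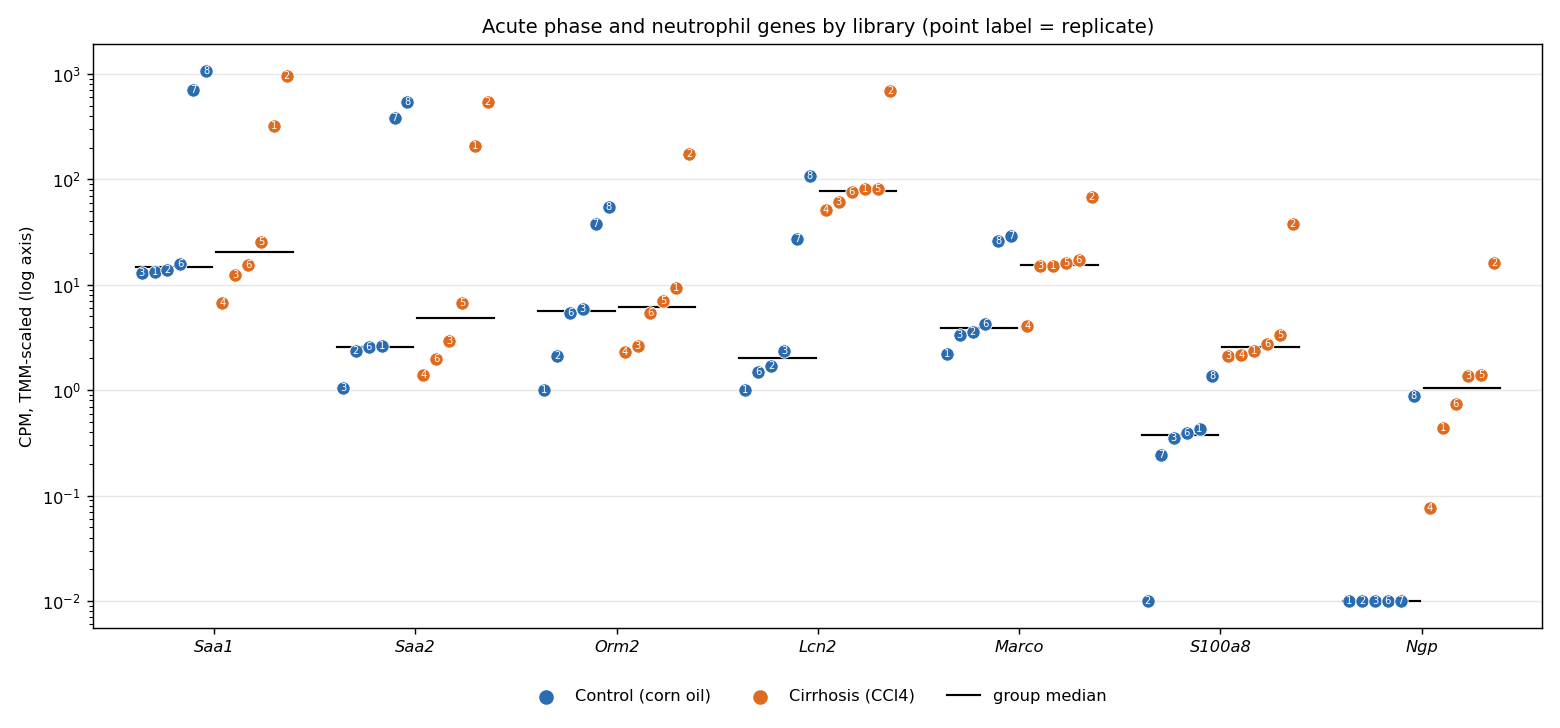
CPM (log axis) of Saa1, Saa2, Orm2, Lcn2, Marco, S100a8 and Ngp in each of the 12 libraries, with replicate numbers as labels; a library at 0 is drawn at the lower edge. Control replicates 7 and 8 and Cirrhosis replicate 2 stand high for Saa1, Saa2, Orm2 and Lcn2, joined by Cirrhosis replicate 1 for Saa1 and Saa2, and Cirrhosis replicate 2 is highest for S100a8 and Ngp.

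Iron genes and hepatokines with other growth signals showed both directions. Hamp (hepcidin, the hormone that blocks iron release) did not pass, at -0.56 ± 0.23, but did without Control replicates 7 and 8, at -0.66 (adjusted p = 0.0428, edgeR). Hmox1, heme oxygenase, ran from 10.1 to 16.6 CPM (median 13.2) in Control and from 42.3 to 69.3 CPM (median 61.6) in Cirrhosis, a change of 2.18 ± 0.14, Tfrc, the transferrin receptor, changed by 1.07 ± 0.17 and Tmprss6, which restrains hepcidin, by -0.93 ± 0.092. Of 20 iron genes 8 rose and 4 fell. Among 27 hepatokines and growth signals 10 rose and 12 fell (median -0.063, 0.63 with totals alone). The list is not confined to hepatocyte products: its rises include Hgf and Gpnmb, the latter described below with the macrophages. Hgf, the hepatocyte growth factor made by stellate cells, ran from 18 to 22 CPM (median 19.7) in Control and from 35.8 to 56.1 CPM (median 50.1) in Cirrhosis, a change of 1.28 ± 0.11. Gdf15, a stress signal to the brain, changed by 1.58 ± 0.36. Fgf21, a fasting and stress hormone, changed by 2.63 ± 0.75, or 3.76 without Control replicate 1, its highest Control library at 5.06 CPM.

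Among stress responses, that of the endoplasmic reticulum was measured in 27 chaperones and folding enzymes, of which 18 rose and 1 fell (median 0.43). Hspa5 ran from 208 to 355 CPM (median 269) in Control and from 588 to 998 CPM (median 838) in Cirrhosis, a change of 1.58 ± 0.13 (adjusted p = 2.1e-09, edgeR), Creld2, a secreted folding factor, changed by 2.06 ± 0.16, and Sdf2l1, a partner of Hspa5, by 1.3 ± 0.28. Herpud1, which helps clear misfolded proteins, fell by 0.39 (0.14 SE), a call that ended without Control replicate 1 or 2 or Cirrhosis replicate 1 or 5 and that reversed to 0.31 with totals alone. The ER stress response element, spelled CCAAT and, after any 9 bases, CCACG, was searched on both strands in windows of 250 bases before to 50 after each start site. It lay in 0.119% of all 32851 windows and in 9 of the 21 list members that had a window, and every match is shown here with the element in capitals, because these stretches let the sites be compared with the changes; Hsp90b1 has a match on each strand. The sequences are from RefSeq (GRCm38.p6), 5′ to 3′ on the strand of the gene.
Hspa5 (chr2:34772005-34772063, + strand): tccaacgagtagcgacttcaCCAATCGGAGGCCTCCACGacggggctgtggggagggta
Creld2 (chr15:88819500-88819558, + strand): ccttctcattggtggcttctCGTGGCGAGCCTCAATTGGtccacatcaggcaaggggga
Derl3 (chr10:75893222-75893280, + strand): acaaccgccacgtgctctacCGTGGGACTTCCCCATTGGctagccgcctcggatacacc
Syvn1 (chr19:6046512-6046570, + strand): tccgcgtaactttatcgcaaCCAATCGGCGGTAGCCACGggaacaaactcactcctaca
Calr (chr8:84847055-84847113, - strand): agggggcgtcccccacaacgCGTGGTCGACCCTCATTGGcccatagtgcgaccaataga
Canx (chr11:50325780-50325838, - strand): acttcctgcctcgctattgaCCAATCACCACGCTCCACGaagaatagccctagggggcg
Hsp90b1 (chr10:86705513-86705571, - strand): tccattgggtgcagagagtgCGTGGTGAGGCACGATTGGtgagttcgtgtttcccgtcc
Hsp90b1 (chr10:86705618-86705676, - strand): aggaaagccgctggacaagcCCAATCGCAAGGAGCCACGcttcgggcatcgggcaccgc
Pdia6 (chr12:17266471-17266529, + strand): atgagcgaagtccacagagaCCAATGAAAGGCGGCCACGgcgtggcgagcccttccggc
Dnajc3 (chr14:118937807-118937865, + strand): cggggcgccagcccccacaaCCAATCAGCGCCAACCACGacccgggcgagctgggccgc
The change was 1.58 for Hspa5, 2.06 for Creld2, 2.08 for Derl3 (a channel component for degradation) and 0.83 for Syvn1 (a ubiquitin ligase of the same pathway). Hsp90b1, the HSP90 of the endoplasmic reticulum, and Pdia6, a disulfide isomerase, rose less, by 0.37 and 0.63. Calr and Canx, the lectin chaperones of glycoproteins, changed by 0.16 ± 0.14 and 0.016 ± 0.081, and Dnajc3, a cochaperone, by 0.18 ± 0.090, and these 3 did not pass. Calr and Dnajc3 passed without Control replicates 7 and 8, at 0.41 and 0.30 (adjusted p = 0.0243 and 0.0213, edgeR), and Dnajc3 also without Cirrhosis replicate 2. In all, 6 of the 9 members with a match rose and 7 of 12 members with a window and no match rose. A match is a description of these letters and no measurement of binding.

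The genes of the integrated stress response, which ATF4 turns on when amino acids run short or translation is slowed, rose in 26 of 32 cases and fell in 2 (median 1.27). Slc7a11, the cystine importer, had the largest log2 rise among genes whose log2 CPM averaged 4 or more: it ran from 0 to 0.220 CPM (median 0.0805) in Control and from 16.4 to 76.3 CPM (median 53.4) in Cirrhosis, where the Control group held 40 counts in all against 31959, a change of 8.80 ± 0.68 (adjusted p = 2.3e-08, edgeR), and was lowest among Cirrhosis livers in replicates 3 and 2, at 16.4 and 24.8 CPM. Atf3, a stress-induced repressor, ran from 0.186 to 0.679 CPM (median 0.418) in Control and from 12.9 to 49.4 CPM (median 34.5) in Cirrhosis, a change of 6.13 ± 0.36, with the same 2 replicates lowest. Ddit3 (CHOP, which links this response to cell death) ran from 2.72 to 4.34 CPM (median 3.52) in Control and from 8.62 to 19.2 CPM (median 15.7) in Cirrhosis, a change of 2.08 ± 0.18, with exons that overlap those of Mars. Slc3a2, the heavy chain that Slc7a11 pairs with, and Slc1a4, a neutral amino acid carrier, changed by 1.63 ± 0.12 and 2.78 ± 0.18. Asns, asparagine synthetase and a classic target, did not pass (0.58 ± 0.47), and Shmt2, of mitochondrial one-carbon metabolism, fell by 1.09 on the log2 scale. Nupr1, a stress-induced chromatin protein named here after its value was seen, changed by 6.14 ± 0.65, or 6.79 without Control replicates 7 and 8.

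The core of the element bound by C/EBP and ATF4 pairs, spelled TGATGNAA and searched in the same windows on both strands, lay in 3.97% of all windows and in 11 of the 25 list members that had one. Capitals mark it in the stretches below, given for every match that ends before the start site; the window of Slc7a11 holds the core on both strands, and both are printed.
Slc7a11 (chr3:50443633-50443680, - strand): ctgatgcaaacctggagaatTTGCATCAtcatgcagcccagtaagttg
Slc7a11 (chr3:50443652-50443699, - strand): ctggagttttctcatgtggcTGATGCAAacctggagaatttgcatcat
Atf3 (chr1:191183416-191183463, - strand): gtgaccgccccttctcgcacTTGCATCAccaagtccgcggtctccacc
Nupr1 (chr7:126625553-126625600, - strand): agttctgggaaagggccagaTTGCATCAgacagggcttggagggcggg
Pck2 (chr14:55540143-55540190, + strand): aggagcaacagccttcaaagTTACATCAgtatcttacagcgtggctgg
Chac1 (chr2:119351029-119351076, + strand): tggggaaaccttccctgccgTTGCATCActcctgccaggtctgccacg
Asns (chr6:7693210-7693252, - strand): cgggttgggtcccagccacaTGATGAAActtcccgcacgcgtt
Gars (chr6:55037951-55037998, + strand): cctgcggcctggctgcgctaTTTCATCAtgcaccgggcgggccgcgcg
Aars (chr8:111033710-111033757, + strand): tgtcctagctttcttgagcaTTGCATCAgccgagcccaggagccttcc
Vldlr (chr19:27216800-27216847, + strand): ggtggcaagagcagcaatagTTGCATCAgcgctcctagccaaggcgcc
Pck2, the mitochondrial form of the enzyme that starts gluconeogenesis, and Chac1, which degrades glutathione, changed by 1.36 ± 0.16 and 1.82 ± 0.29. Gars, glycyl-tRNA synthetase, rose by 0.70, while Aars, alanyl-tRNA synthetase, and Vldlr, a lipoprotein receptor, did not pass (-0.21 ± 0.090 and 0.46 ± 0.28). Aars passed as a fall when any 1 of Control replicates 1 and 6 and Cirrhosis replicates 1 and 5 was left out, and its change was 0.53 with totals alone. The matches of Slc1a4 and Trib3 and a second match of Aars lie across or past the start site and are not printed. Of the 11 members with a match 8 rose, and of 14 with a window and no match 12 rose. No member of either list had a match to both elements.

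Antioxidant genes of the NRF2 response rose in 18 of 33 cases and fell in 7 (median 0.53). Nqo1, a quinone reductase and common marker of the response, ran from 1.52 to 3.27 CPM (median 2.23) in Control and from 4.82 to 7.05 CPM (median 6.05) in Cirrhosis, a change of 1.40 ± 0.18. G6pdx and Pgd, which supply NADPH through the pentose phosphate route, changed by 1.48 ± 0.10 and 1.95 ± 0.15. In the other direction Gpx1, the main cellular glutathione peroxidase, ran from 478 to 645 CPM (median 585) in Control and from 209 to 266 CPM (median 232) in Cirrhosis, a change of -1.3 ± 0.10, Sod2, mitochondrial superoxide dismutase, changed by -0.77 ± 0.076 and Gclm, a subunit of glutathione synthesis, by -0.55 ± 0.090. Cytosolic heat shock genes rose in 12 of 19. Hspb1, a small heat shock protein, was at 5.52 and 8.08 CPM in Cirrhosis replicates 2 and 3, just above the highest Control library at 5.20 CPM, and between 50.9 and 89.7 CPM in the other 4 (3.49 ± 0.55). The metallothioneins Mt1 and Mt2, which bind zinc, changed by 2.07 ± 0.58 and 2.50 ± 0.73, and by 2.79 and 3.45 without Control replicate 8, the Control library in which both were highest.

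Immediate early factors, switched on within minutes of a stimulus, rose in 20 of 24 cases and fell in 1, with a median of 2.1. Jun, a subunit of AP-1, ran from 6.70 to 12.2 CPM (median 10.7) in Control and from 21.5 to 70.9 CPM (median 54.1) in Cirrhosis, a change of 2.31 ± 0.26, Btg2, an antiproliferative p53 target, changed by 2.29 ± 0.19 and Klf4, an epithelial and endothelial factor, by 2.01 ± 0.16. Zfp36, which degrades cytokine messages, fell by 0.63 on the log2 scale. Among 29 cell death genes 15 rose and 8 fell (median 0.24). Mlkl, the executioner of necroptosis, ran from 1.77 to 3.04 CPM (median 2.36) in Control and from 5.41 to 8.86 CPM (median 6.34) in Cirrhosis, a change of 1.51 ± 0.15, and Apaf1, the apoptosome scaffold, changed by 1.66 ± 0.14. Casp6, an effector caspase, changed by -0.84 ± 0.088.

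Genes of cell division mostly rose. Of 30 mitotic genes 23 rose and none fell (median 1.61). Mki67, the proliferation marker Ki-67, ran from 1.78 to 6.28 CPM (median 3.36) in Control and from 9.23 to 17.9 CPM (median 10.9) in Cirrhosis, a change of 1.74 ± 0.26, and Cdk1, the mitotic kinase, changed by 1.82 ± 0.24. Of 34 replication genes 17 rose and 6 fell (median 0.44). Mcm6 and Mcm2, of the replicative helicase, changed by 2.01 ± 0.16 and 1.54 ± 0.17, while Mcm10, which starts the helicase, ran from 41.2 to 60.9 CPM (median 54.4) in Control and from 6.41 to 16.9 CPM (median 11.8) in Cirrhosis and fell (-2.2 ± 0.18). Rrm2, which makes deoxynucleotides in S phase, did not pass (0.45 ± 0.26). Of 61 clustered histone genes, whose messages lack a poly(A) tail and so are missed by poly(A) selection but not by the ribosomal RNA depletion used here, 10 rose, 4 fell and 47 did not pass (median 0.47). Without Control replicates 7 and 8, 23 rose and 2 fell (median 1.12), and with totals alone 38 rose and none fell. Proteasome subunits fell in 15 of 43 and rose in 3 (median -0.11, 0.61 with totals alone), and without Control replicates 7 and 8, 5 fell and 4 rose (median -0.035).

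Structural and calcium-binding proteins of injured epithelium and of non-hepatocytes rose. Anxa2, a membrane-binding annexin that is scarce in adult hepatocytes, ran from 4.82 to 6.01 CPM (median 5.10) in Control and from 45 to 132 CPM (median 94.0) in Cirrhosis, a change of 4.08 ± 0.22 (adjusted p = 1.6e-10, edgeR), and S100a11 and S100a6 changed by 3.29 ± 0.27 and 2.98 ± 0.35. Across annexins and S100 proteins 14 of 21 rose and 4 fell (median 1.71), S100a1 being among the latter (-1.14 ± 0.11). Krt8 and Krt18, the keratin pair of hepatocytes, changed by 1.68 ± 0.16 and 1.37 ± 0.14, and Krt8 ran from 65.9 to 83.9 CPM (median 74.4) in Control and from 122 to 329 CPM (median 239.5) in Cirrhosis. Of 15 tubulins 10 rose and 1 fell (median 1.33): Tubb2b ran from 0.984 to 1.78 CPM (median 1.42) in Control and from 6.78 to 28.3 CPM (median 19.3) in Cirrhosis, a change of 3.65 ± 0.30. In the list of fetal and tumour-linked genes 19 of 22 rose. Ly6d, a surface protein of epithelium and lymphoid cells, ran from 0 to 0.610 CPM (median 0.267) in Control and from 16.6 to 52.6 CPM (median 30.6) in Cirrhosis, a change of 6.87 ± 0.48, or 7.63 without Control replicates 7 and 8, while Afp, the fetal albumin, did not pass (0.51 ± 0.28). Lysosomal genes rose in 21 of 42 and fell in 11 (median 0.35), among the former Cd63 (4.40 ± 0.30), a membrane protein of lysosomes and exosomes.

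The scar itself was read first in the collagens. Of 37 tested collagen chains 22 rose and 6 fell, with a median of 1.89. Col1a1, of type I collagen, was between 164 and 290.3 CPM in Cirrhosis and between 4.15 and 11.8 CPM in 5 Control mice, with 38.8 CPM in Control replicate 7 (3.96 ± 0.55, and 4.65 without that replicate). The basement membrane chains Col4a1 and Col4a2 rose with less spread: Col4a1 ran from 30.4 to 43.8 CPM (median 36.3) in Control and from 166 to 195 CPM (median 184) in Cirrhosis, a change of 2.33 ± 0.12. Col6a3, of the beaded filaments, Col5a2, of fibril cores, and Col15a1, of basement membrane edges, changed by 2.82 ± 0.29, 3.35 ± 0.23 and 2.42 ± 0.27. Col18a1, whose endostatin-bearing chain hepatocytes make, fell: it ran from 687 to 855 CPM (median 783) in Control and from 331 to 540.4 CPM (median 412) in Cirrhosis, a change of -0.90 ± 0.11. Col25a1 also fell (-3.0 ± 0.40).

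Other matrix genes rose as well. Among laminins and their partners 11 of 16 rose and 2 fell (median 0.98). Nid1, which joins laminin to collagen IV, ran from 17.4 to 24 CPM (median 19.7) in Control and from 72.0 to 115 CPM (median 98.7) in Cirrhosis, a change of 2.29 ± 0.12, and Lama3, an epithelial laminin chain, fell by 1.84 on the log2 scale. Of 33 glycoproteins and proteoglycans 27 rose and 2 fell (median 1.91). Tnc, the wound glycoprotein tenascin C, ran from 1.15 to 3.41 CPM (median 1.99) in Control and from 25.6 to 70.5 CPM (median 44.4) in Cirrhosis, a change of 4.55 ± 0.28, Thbs1, which activates latent TGF-beta, ran from 1.46 to 4.45 CPM (median 2.75) in Control and from 29.8 to 154 CPM (median 105) in Cirrhosis, a change of 5.17 ± 0.43, and Eln, elastin, changed by 2.77 ± 0.33. Fn1, fibronectin, which hepatocytes also secrete into plasma, did not pass (-0.22 ± 0.095). The enzymes that modify and crosslink collagen rose in 18 of 22 and fell in 3. Loxl2, a crosslinking amine oxidase, ran from 4.28 to 6.65 CPM (median 5.30) in Control and from 18.5 to 24.9 CPM (median 22.5) in Cirrhosis, a change of 2.06 ± 0.13, and Bmp1, a procollagen protease, fell by 0.46 on the log2 scale.

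Proteases that could remodel that matrix rose with it, 39 of 58 up and 8 down (median 1.57). Mmp12, the macrophage elastase, ran from 0.220 to 2.0 CPM (median 0.606) in Control and from 36.7 to 73.6 CPM (median 68.8) in Cirrhosis, a change of 6.47 ± 0.47, or 7.24 without Control replicates 7 and 8, and Adam8, a sheddase of leukocytes, ran from 0.223 to 0.542 CPM (median 0.469) in Control and from 18.7 to 39.1 CPM (median 28.3) in Cirrhosis, a change of 6.06 ± 0.27. Adamts12 and Mmp14, a matrix metalloproteinase anchored in the membrane, changed by 3.88 ± 0.20 and 1.59 ± 0.089. Timp1, which inhibits most of these enzymes, was between 2.47 and 8.54 CPM in Cirrhosis, at 1.15 CPM in Control replicate 7 and at 0.118 CPM or less in the other Control mice (4.79 ± 0.78, and 6.93 without that replicate). Mmp15 and Adamts13, which cuts von Willebrand factor and is made by stellate cells, fell by 1.11 and 0.87 on the log2 scale.

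Stellate cell genes moved in both directions. Of 22 markers of the resting, vitamin A-storing cell 11 rose and 5 fell (median 0.58). Pdgfrb, the receptor through which stellate cells are driven to divide, ran from 9.14 to 12.3 CPM (median 9.79) in Control and from 52.4 to 64.2 CPM (median 58.1) in Cirrhosis, a change of 2.52 ± 0.20, and Des, desmin, changed by 1.37 ± 0.17. Reln, a resting stellate marker, did not pass (0.19 ± 0.089), and Ecm1 and Vipr1 fell by 1.07 and 1.24 on the log2 scale. Of 22 contractile and activation markers 17 rose and none fell (median 1.46). Acta2, smooth muscle actin, ran from 0.669 to 3.08 CPM (median 1.39) in Control and from 5.36 to 6.42 CPM (median 5.93) in Cirrhosis, a change of 1.85 ± 0.40, and Tpm1 and Vim changed by 1.99 ± 0.13 and 2.19 ± 0.21.

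Signals known to drive scarring were mostly higher. All 3 TGF-beta ligands rose: Tgfb1 ran from 5.39 to 11.4 CPM (median 7.0) in Control and from 12.2 to 18.5 CPM (median 14.9) in Cirrhosis, a change of 1.01 ± 0.18, and Tgfb2 and Tgfb3 changed by 3.51 ± 0.37 and 2.82 ± 0.33. Tgfb2 changed by 4.11 without Control replicates 7 and 8. Nrros, which holds latent TGF-beta on macrophages, changed by 1.61 ± 0.11, and across the pathway 23 of 37 genes rose and 4 fell (median 0.65). Itgav, the integrin chain that releases latent TGF-beta, ran from 31.3 to 39.6 CPM (median 35.1) in Control and from 55.6 to 103 CPM (median 82.9) in Cirrhosis, a change of 1.19 ± 0.10. In the integrin list, whose symbol pattern also takes in a few integrin-binding proteins such as Itgb3bp, 23 of 30 rose and 3 fell (median 1.17). Pdgfb, the ligand of Pdgfrb, changed by 1.59 ± 0.28, while Vegfa, the endothelial growth factor that hepatocytes make, fell: it ran from 85.0 to 93.7 CPM (median 89.8) in Control and from 40.3 to 57.8 CPM (median 51.2) in Cirrhosis, a change of -0.82 ± 0.079.

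Among targets of YAP, a coactivator in stretched and injured tissue, 15 of 26 rose and 2 fell (median 0.56). Ctgf, a matrix-associated target, changed by 1.84 ± 0.17 and Ccnd1, cyclin D1, ran from 16.6 to 29.8 CPM (median 25) in Control and from 68.8 to 133 CPM (median 101) in Cirrhosis, a change of 2.07 ± 0.19. Notch genes rose in 10 of 20 and fell in 3, with Notch3 at 1.24 ± 0.16 and Hes6 at -1.49 ± 0.099. Wnt ligands and regulators showed 12 up, 9 down and 18 that did not pass of 39 (median 0.16). These shares are not far from those over protein-coding genes, 31.9% higher and 28.3% lower, or over all genes, 25.5% and 25%. Wnt2 and Rspo3, endothelial ligands of liver zonation, did not pass (0.16 ± 0.20 and 0.13 ± 0.15). The R-spondin receptors of hepatocytes fell, Lgr4 by 1.18 and Lgr5 by 1.53 on the log2 scale, as did Rnf43, the ligase that they inhibit, by 0.95.

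**Figure D4:**
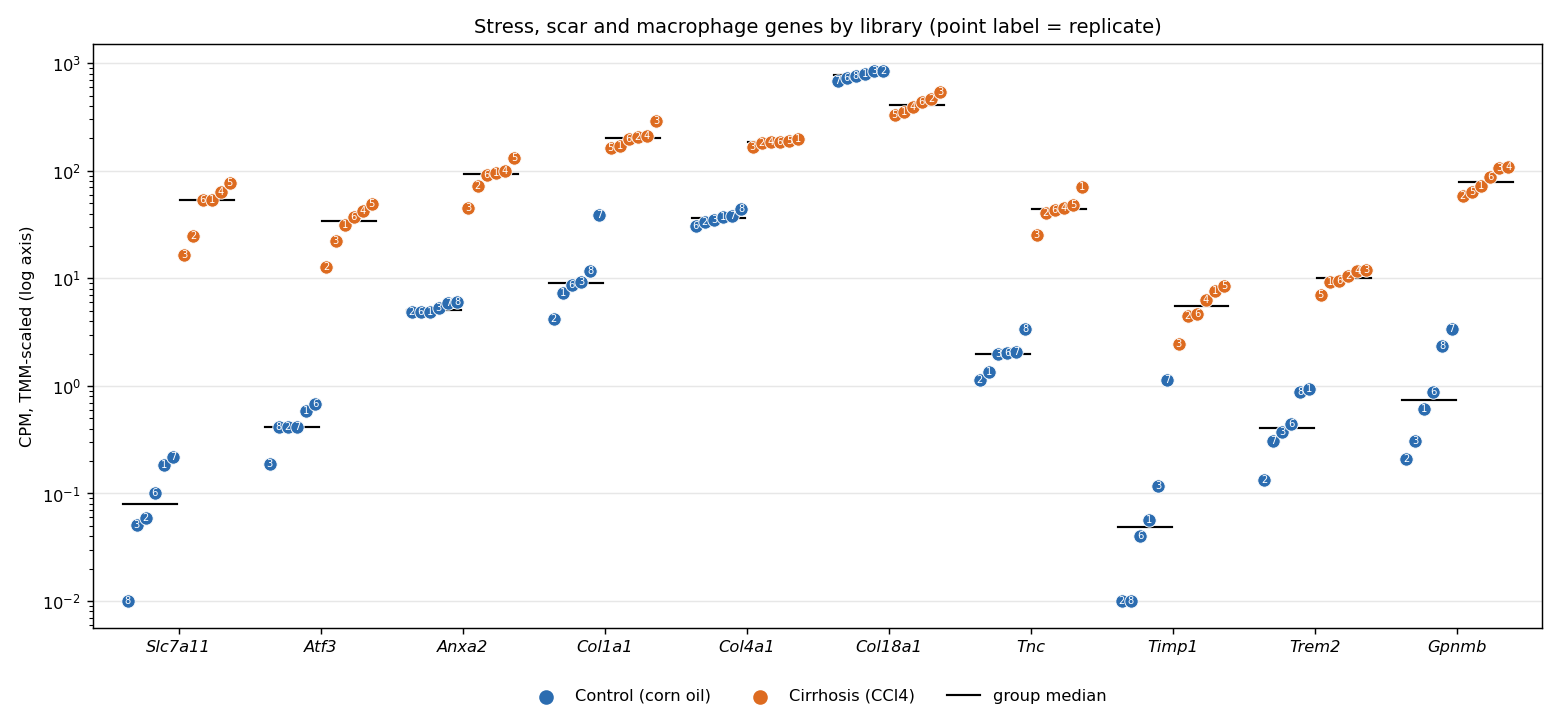
CPM (log axis) of 10 scar, stress and macrophage genes in each of the 12 libraries, Control in blue and Cirrhosis in orange, with replicate numbers and a bar at the group median; a library at 0 is drawn at the lower edge. Every gene but Col18a1 lies higher in all 6 Cirrhosis libraries, and Control replicate 7 is the highest Control library for Col1a1, Timp1 and Gpnmb.

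The endothelium showed a gain of ordinary vessel markers without a uniform loss of sinusoidal ones. Of 24 sinusoidal markers 4 rose, 4 fell and 16 did not pass (median -0.022, on either side of 0 under other settings and 0.69 with totals alone). Stab2 and Clec4g, scavenger and lectin receptors of these cells, did not pass (-0.11 ± 0.073 and -0.15 ± 0.085), Stab1 changed by 0.56 ± 0.093, and Kdr, the main VEGF receptor, fell: it ran from 64.7 to 74.5 CPM (median 70.1) in Control and from 42 to 51.7 CPM (median 47.0) in Cirrhosis, a change of -0.58 ± 0.067. Of 25 capillary and large vessel markers 18 rose and none fell (median 0.86). Vwf, von Willebrand factor, ran from 8.82 to 11.9 CPM (median 10.5) in Control and from 21.1 to 38.8 CPM (median 23.4) in Cirrhosis, a change of 1.33 ± 0.17, and Cd34, which marks continuous endothelium, ran from 0.818 to 2.30 CPM (median 1.23) in Control and from 5.30 to 6.30 CPM (median 6.11) in Cirrhosis, a change of 2.11 ± 0.30.

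Markers of bile duct cells rose in 16 of 24 cases and fell in 2 (median 1.58). Sox9, the duct transcription factor that injured hepatocytes can also express, ran from 4.03 to 6.64 CPM (median 5.89) in Control and from 10.6 to 42.4 CPM (median 21.8) in Cirrhosis, a change of 1.99 ± 0.24, and Krt19, a keratin confined to ducts in liver, ran from 0.139 to 0.837 CPM (median 0.363) in Control and from 1.17 to 2.11 CPM (median 1.75) in Cirrhosis, a change of 2.09 ± 0.42. Tspan8, a duct tetraspanin, changed by 3.10 ± 0.39. Capsule markers were mixed: Wt1 changed by 2.52 ± 0.45, or 3.36 without Control replicates 7 and 8, and Msln, mesothelin, did not pass (0.94 ± 0.79). Of 7 nerve and Schwann cell markers 4 rose, among them Ncam1 (3.09 ± 0.39), which activated stellate cells also express. Markers of other organs that a dissection could bring along mostly did not pass the filter: of 10 pancreatic enzymes, 7 fat and 8 striated muscle genes listed, 2, 1 and 1 were tested. None rose, while 1 pancreatic gene and the 1 fat gene, Car3, fell, by 1.61 and 2.73 on the log2 scale. The summed level of the fat list was high in whole liver, with a median of 1218 CPM in Control and 170 CPM in Cirrhosis. The fall of Car3 is therefore not read here as a change in fat tissue brought along.

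Markers of recruited macrophages rose widely, and those of resident ones moved in both directions. Of 28 markers of recruited and scar-associated macrophages 25 rose and 1 fell, with a median of 3.28. Trem2, a lipid receptor of these cells, ran from 0.134 to 0.943 CPM (median 0.409) in Control and from 6.98 to 11.9 CPM (median 9.99) in Cirrhosis, a change of 4.30 ± 0.33, and Gpnmb, a membrane glycoprotein of theirs, ran from 0.208 to 3.41 CPM (median 0.743) in Control and from 58.1 to 109 CPM (median 79.2) in Cirrhosis, a change of 6.11 ± 0.62, or 6.71 without Control replicate 7. Ccr2 and Cx3cr1, receptors that bring monocytes in and keep them, changed by 3.36 ± 0.36 and 3.11 ± 0.24. The 1 member that fell was Apoe (-1.08 ± 0.16), which hepatocytes also make. Markers of resident Kupffer cells showed 10 up and 7 down of 24 (median 0.33). Clec4f, their most specific lectin in the mouse, ran from 55.2 to 72.4 CPM (median 61.2) in Control and from 30 to 57.3 CPM (median 35.2) in Cirrhosis, a change of -0.69 ± 0.17, and Cd163, the haptoglobin-hemoglobin receptor, ran from 10 to 19.3 CPM (median 14.5) in Control and from 0.953 to 7.22 CPM (median 2.71) in Cirrhosis, a change of -2.22 ± 0.49. Timd4, which takes up dying cells, fell by 1.48 on the log2 scale, a call that ended when Control replicate 7 or 8 or any of Cirrhosis replicates 3 to 6 was left out, while without Cirrhosis replicate 2 the fall was 2.09. C1qa, C1qb and C1qc, complement genes shared by all macrophages, changed by 1.11 ± 0.12, 1.47 ± 0.12 and 0.98 ± 0.15.

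Neutrophil markers rose in 15 of 16 cases and none fell (median 3.84), and 7 of the 16 lay higher in all 6 Cirrhosis libraries than in any Control library. The list was scarce in Control, with a median summed level of 5.82 CPM. Members could pass the low-count filter through a group where they are high, so the count of rises is a description only. The median was 2.67 without Cirrhosis replicate 2, 4.89 without Control replicate 8 and between these values when any other library was left out. Levels of S100a8, Ngp and Csf3r were far higher in 1 mouse than in the other Cirrhosis mice. S100a8, a subunit of calprotectin, was at 37.5 CPM in Cirrhosis replicate 2 and between 2.12 and 3.33 CPM in the other 5, against 1.36 CPM or less in Control (4.27 ± 0.96, and 2.52 without Cirrhosis replicate 2). Ngp, a granule protein of maturing neutrophils, was at 16.2 CPM in that mouse and at 1.41 CPM or less in the others, and its call was lost without it (log2 2.74, adjusted p = 0.0923, edgeR, 5 against 6 libraries). Without Control replicate 8, where Ngp was highest in Control at 0.887 CPM, the fitted change was 11.27, a size set by Control libraries at or near 0. Csf3r, the receptor for the neutrophil growth factor, ran from 1.77 to 3.33 CPM (median 2.04) in Control and from 8.39 to 31.6 CPM (median 10.6) in Cirrhosis, a change of 2.58 ± 0.33. The same mouse was the highest Cirrhosis library for Saa1, Orm2 and Lcn2.

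Lymphocyte markers were measured at low levels, which limits what can be seen. Of 24 T cell markers 12 rose and 1 fell (median 0.84); Il7r, the interleukin 7 receptor, ran from 0.111 to 1.96 CPM (median 0.782) in Control and from 3.55 to 6.64 CPM (median 5.35) in Cirrhosis, a change of 2.69 ± 0.40, and Cd3e, of the T cell receptor complex, did not pass (0.68 ± 0.37). Of 17 natural killer markers 4 rose, 1 fell and 12 did not pass. Over all genes 25.5% rose and 25% fell, and over protein-coding genes 31.9% and 28.3%. The summed level of the list changed little, with a median of 12.7 CPM in Control and 14.5 CPM in Cirrhosis. Ncr1, the receptor that marks innate lymphocytes, had the largest rise of the list. It had no count in any Control library and 250 counts over the 6 Cirrhosis libraries (0.209 to 0.472 CPM). Set against a floor of 3 counts over the Control group it was 46.5-fold higher. The 95% interval from the counts pooled over mice began at 37.6-fold. That interval takes reads as its units, so it covers counting noise and leaves out the spread among mice. With no count in Control, Ncr1 passed the low-count filter only through groups given CCl4. Of 25 B and plasma cell markers 15 rose and none fell (median 0.94), and 19 rose without Control replicates 7 and 8 (median 1.56). Igha, the constant region of IgA, ran from 0.815 to 2.96 CPM (median 1.93) in Control and from 5.56 to 15.1 CPM (median 10.2) in Cirrhosis, a change of 2.44 ± 0.52, and Ighm, that of IgM, did not pass (0.66 ± 0.59, but 1.94 without Control replicates 7 and 8, adjusted p = 0.00222, edgeR) and was highest among Control mice in replicate 7, at 44.5 CPM.

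Genes of antigen presentation rose in 16 of 23 cases and none fell (median 1.22). H2-Aa, an MHC class II chain, ran from 9.58 to 20.7 CPM (median 13.6) in Control and from 35.1 to 47.5 CPM (median 42.2) in Cirrhosis, a change of 1.5 ± 0.19, and Irf8, a factor of monocytes and dendritic cells, changed by 1.75 ± 0.15. Of 31 chemokines 20 rose and 2 fell (median 1.58). Ccl2, the ligand of Ccr2, ran from 0 to 0.308 CPM (median 0.145) in Control and from 1.02 to 9.70 CPM (median 4.28) in Cirrhosis, a change of 4.69 ± 0.56, and Ccl6 changed by 3.09 ± 0.28. Cxcl12, which stromal and endothelial cells present to Cxcr4, fell (-0.69 ± 0.12) while Cxcr4 itself rose (2.90 ± 0.21).

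Innate sensing and interferon genes rose too. Of 32 Toll receptors, inflammasome and adhesion genes 28 rose and 3 fell (median 1.74). Tlr13, a receptor for bacterial ribosomal RNA, ran from 0.893 to 2.16 CPM (median 1.74) in Control and from 13.8 to 22.3 CPM (median 15.8) in Cirrhosis, a change of 3.34 ± 0.19, and Tnf changed by 3.55 ± 0.38. Tlr5, the flagellin receptor, fell: it ran from 8.03 to 17.5 CPM (median 13.1) in Control and from 1.06 to 2.34 CPM (median 1.75) in Cirrhosis, a change of -2.88 ± 0.20. Of 33 interferon-stimulated genes 24 rose and none fell (median 0.67). Oas1a, a sensor of double-stranded RNA, ran from 1.59 to 1.81 CPM (median 1.68) in Control and from 4.83 to 9.86 CPM (median 8.14) in Cirrhosis, a change of 2.21 ± 0.15.

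Among lncRNA genes with established names, the largest rises, among genes whose log2 CPM averaged 1 or more, were in Dnm3os (2.37 ± 0.21), which hosts microRNAs of fibroblasts, Trerf1 (2.05 ± 0.21), whose symbol belongs to a transcription factor gene but which the annotation used gives as a processed transcript, Pvt1 (1.41 ± 0.19), the neighbour of Myc, and Mir17hg (1.37 ± 0.22), the host of a growth-linked microRNA cluster. Among the largest falls were transcripts named as antisense to hepatocyte factors and to Hectd2. Hectd2os ran from 11.7 to 32.3 CPM (median 14) in Control and from 0.982 to 2.83 CPM (median 2.01) in Cirrhosis, a change of -3.17 ± 0.30, and Hnf4aos and Tbx3os1 changed by -2.39 ± 0.27 and -2.11 ± 0.23, beside falls in Hnf4a and Tbx3 themselves. The strand used for counting is not stated, so where exons overlap, as they do for Hectd2os with Hectd2 and Tbx3os1 with Tbx3, reads of the pair cannot be told apart. Neat1, of nuclear paraspeckles, did not pass (0.26 ± 0.44). Of the genes named in the text, 69 have exons that overlap those of another annotated gene.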

How the data were processed

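Whole-liver RNA, depleted of ribosomal RNA, was sequenced to cover messenger and long noncoding RNA. The deposited table holds whole-number counts per gene for 18 libraries, which the authors made on the GRCm38 build; the submitters' processing notes name, without roles, Trim Galore, cutadapt 4.2, Bowtie2, Bowtie 1.3.1, HISAT2 2.2.1 and StringTie 2.1.5, and the annotation release and strand setting are not given in the sources used here. Every column was mapped to a sample by its title. The 3 groups, 6 libraries each, entered 1 fit in edgeR 4.0.16 (R 4.3.3) with filterByExpr, TMM scaling, a robust quasi-likelihood test of Cirrhosis against Control and Benjamini-Hochberg adjustment. CPM values are counts over TMM-scaled library totals. The 10 class shares were compared with two-sided exact permutation tests, whose smallest possible p is 0.00216. Nothing says that libraries of a group share a culture or litter, and each is taken as 1 mouse.

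The members and the 74 gene lists were chosen with earlier results of these data known. Lists can share members. Atf3 is in the ATF4 and immediate early lists, and Slc7a11 in the ATF4 and NRF2 lists. Lpl is in the lipid droplet, recruited macrophage and fetal lists. Genes were named by a rule: preset members of each list, up to 3 called members with the smallest p in the leading direction and up to 2 in the other, the largest changes in CPM and in log2, the largest lncRNA changes and the widest spreads in Cirrhosis. Some genes that the rule names are not reported here. The fitting step was tested on simulated counts. Alternatives changed scaling, filter, tool (DESeq2 1.42.0), samples and pairing. Replicate numbers are not stated to pair mice across the groups. Numbers 1, 2, 3 and 6 occur in both, and the correlations of same-numbered deviations ran from -0.0644 to 0.0512. With so few shared numbers, these values showed no pairing but cannot exclude a shared batch or order of processing. Exon overlaps come from GENCODE release 21 of the mouse and promoter windows from RefSeq.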

Additional observations from a re-analysis of the deposited data

Results flagged for a closer look

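In each group the gap of the highest or lowest library to its nearest neighbour was divided by the range of the group, on the log2 CPM scale, and a ratio above Dixon's 95% limit for 6 values marked the library as far from the others. The ratio stands in brackets, and highest or lowest is among the 6 libraries of the group. Of 497 groups of values, over the named genes, the 10 class shares and 3 library measures, 29 were marked (5.84%), where chance marks about 1 in 20. Cirrhosis replicate 2 was highest for Apobec1 (0.694), Ccr2 (0.717), Csf3r (0.716), G6pdx (0.800), Ighm (0.698), Lcn2 (0.819), Orm2 (0.680) and S100a8 (0.843). Cirrhosis replicate 2 had the most genes with at least 10 counts of the 6 Cirrhosis libraries (ratio 0.685). Control replicate 2 was lowest for Ccr2 (0.739), Sox9 (0.706) and Tlr13 (0.645). Cirrhosis replicate 5 was lowest for Cebpa (0.796), Igfals (0.716) and Ppara (0.647). Control replicate 3 was lowest for Cd36 (0.748) and S100a1 (0.664). Control replicate 1 was highest for Foxa3 (0.647) and Pdgfrb (0.700). Control replicate 7 was highest for Ighm (0.656) and Serpina7 (0.673). Cirrhosis replicate 3 was lowest for Mmp12 (0.840) and Tnf (0.715). Control replicate 8 was lowest for Ccl2 (0.682). Cirrhosis replicate 3 was highest for Lama3 (0.692). Control replicate 8 was highest for Ngp (1). Control replicate 7 was lowest for Pde6b (0.736). Cirrhosis replicate 2 was lowest for Wt1 (0.636). Control replicate 1 was lowest for Zfp36 (0.779). The high values of Cirrhosis replicate 2 were mostly in neutrophil, monocyte and acute phase genes (Csf3r, S100a8, Ccr2, Lcn2 and Orm2). Their relation to the other changes in that mouse was not tested.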

How the results depend on the processing

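The number of genes called stayed between 9323 and 14046 over all alternatives and between 10385 and 10988 when 1 library was left out, but its split did not hold under every scaling. Library totals alone called 12923 genes higher and 1123 lower, 7623 of them changed at least 2-fold, and 2732 genes called on the TMM scale took the other sign. Totals outside the ribosomal RNA loci, an alternative chosen after seeing the data, gave 11097 and 2058, with 1610 turned. A filter of 1 CPM in 6 libraries left 3169 genes changed at least 2-fold, since fewer genes were tested. DESeq2 called 11455, upper quartile scaling 11087 and the fit without Control replicates 7 and 8 10576. With only the 12 libraries of Control and Cirrhosis in the fit, 20759 genes were tested, and 5574 were called higher and 4861 lower. With the replicate number as a block, although the numbers are not stated to pair the samples, 9526 genes were called. Of 212 named and called genes 184 kept call and direction in every alternative. With library totals alone the reversed list medians were 0.18 for growth hormone axis, 0.14 for fatty acid oxidation and ketogenesis, 0.087 for sterol synthesis, 0.056 for fatty acid and triglyceride synthesis, 0.15 for lipid droplet genes, 0.065 for apolipoproteins, 0.22 for gluconeogenesis and glycogen and 0.69 for acute phase proteins. With library totals alone the reversed list medians were 0.63 for hepatokines and growth signals, 0.079 for core clock, 0.61 for proteasome subunits, 0.69 for sinusoidal endothelial markers, 0.68 for solute carriers, 0.14 for serpin clade A and 0.62 for zinc finger protein genes. With library totals alone the reversed log2 changes of genes were 0.53 for Aars, 0.25 for Bmp1, 0.030 for Clec4f, 0.58 for Clec4g, 0.032 for Cxcl12, 0.26 for Fasn, 0.51 for Fn1 and 0.16 for Gclm. With library totals alone the reversed log2 changes of genes were 0.12 for Hamp, 0.15 for Hdc, 0.31 for Herpud1, 0.19 for Hnf4a, 0.14 for Kdr, 0.53 for Saa1, 0.69 for Saa2 and 0.61 for Stab2. With library totals alone the reversed log2 changes of genes were 0.11 for Zfp36. With totals outside the ribosomal RNA loci the reversed list medians were 0.39 for acute phase proteins, 0.41 for hepatokines and growth signals, 0.38 for proteasome subunits, 0.46 for sinusoidal endothelial markers, 0.46 for solute carriers and 0.39 for zinc finger protein genes. With totals outside the ribosomal RNA loci the reversed log2 changes of genes were 0.28 for Aars, 0.018 for Bmp1, 0.34 for Clec4g, 0.044 for Fasn, 0.27 for Fn1, 0.080 for Herpud1, 0.028 for Saa1 and 0.18 for Saa2. With totals outside the ribosomal RNA loci the reversed log2 changes of genes were 0.37 for Stab2. With the replicate block the reversed list medians were 0.44 for acute phase proteins and 0.016 for sinusoidal endothelial markers. With the replicate block the reversed log2 changes of genes were 2.26 for Saa1 and 3.72 for Saa2. Without Control replicates 7 and 8 the reversed list medians were 0.55 for acute phase proteins and 0.044 for sinusoidal endothelial markers. Without Control replicates 7 and 8 the reversed log2 changes of genes were 4.05 for Saa1 and 5.91 for Saa2. With the 1 CPM filter the reversed list medians were -0.068 for Wnt signals and regulators and 0.0068 for sinusoidal endothelial markers. With RLE size factors the reversed list medians were 0.011 for sinusoidal endothelial markers and 0.0090 for solute carriers. With DESeq2 the reversed list medians were 0.011 for sinusoidal endothelial markers and 0.0084 for solute carriers. With no filter the reversed list medians were 0.0065 for sinusoidal endothelial markers and 0.0026 for solute carriers. With 12 libraries in the fit the reversed list medians were 0.010 for sinusoidal endothelial markers and 0.0072 for solute carriers. With 1 library left out, the values that changed sign ran from -0.27 to 0.20 for acute phase proteins, from -0.13 to 0.031 for hepatokines and growth signals, from -0.053 to 0.025 for sinusoidal endothelial markers, from -0.061 to 0.0083 for solute carriers, from -0.028 to 0.052 for Canx, from -1.73 to 1.69 for Orm2, from -2.01 to 0.55 for Saa1 and from -1.83 to 0.70 for Saa2. The mitochondrial share of counts, Cirrhosis minus Control, became significant at -0.794 percentage points outside the ribosomal RNA loci and -0.364 without Control replicates 7 and 8, and ran from -0.371 to -0.199 with 1 library left out. The apolipoprotein share difference, 0.0859 and not significant, reversed to -0.409 outside those loci and -0.0285 without Control replicates 7 and 8, and ran from -0.00932 to 0.135 with 1 library left out. The cause of these changes was not tested. Genes at or near 0 counts in 1 group have fitted sizes that depend on few reads.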

Other observations

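Solute carriers, the large family of membrane transporters, were called in both directions, 86 higher and 101 lower of 293 tested (median -0.024, 0.68 with totals alone). These shares are not far from those of all protein-coding genes, 31.9% higher and 28.3% lower. Slc7a8, a carrier of neutral amino acids, ran from 2.56 to 4.67 CPM (median 3.83) in Control and from 13.7 to 18.9 CPM (median 16.2) in Cirrhosis, a change of 2.14 ± 0.13 (adjusted p = 1.2e-10, edgeR). Slc25a42, the mitochondrial carrier of coenzyme A, and Slc12a7, a potassium chloride cotransporter, changed by -1.43 ± 0.10 and -1.04 ± 0.072. The groups did not overlap in these 3 genes.

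Clade A serpins had 10 lower and 5 higher of 20 (median -0.54, 0.14 with totals alone), and the intracellular clade B 3 higher and 1 lower of 8 (median 0.81, 1.57 without Control replicates 7 and 8). Serpina7, which carries thyroid hormone in blood, rose: it ran from 8.35 to 24.7 CPM (median 9.71) in Control and from 34.4 to 165 CPM (median 97.1) in Cirrhosis, a change of 3.03 ± 0.37. Serpina1d, one of the near-identical alpha-1-antitrypsin genes between which the split of reads is uncertain, changed by -1.44 ± 0.11. Serpinb6a changed by 1.37 ± 0.12 and Serpinb1a, an inhibitor of neutrophil elastase, by -1.22 ± 0.31, the levels of Serpinb1a overlapping between the groups.

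Zinc finger protein genes, most of them transcription factors, were lower in 107 and higher in 60 of 363 cases (median -0.091, 0.62 with totals alone). The other 196 did not pass, and over all protein-coding genes 28.3% were lower and 31.9% higher. Zfp445 and Zfp871 changed by -1.26 ± 0.11 and -0.83 ± 0.071, and Zfp9 by 1.92 ± 0.17. Zfp469, mutated in brittle cornea syndrome, ran from 0 to 0.198 CPM (median 0.0624) in Control and from 1.77 to 3.48 CPM (median 2.88) in Cirrhosis, a change of 5.35 ± 0.54 that rests on Control libraries at or near 0. Of 8 platelet and megakaryocyte markers 3 rose and 1 fell: Pf4, a platelet chemokine, changed by 3.04 ± 0.47 and Gp1ba, of the receptor for von Willebrand factor, by -0.73 ± 0.27, a call that ended without Control replicate 2 or 6 or Cirrhosis replicate 1, 5 or 6. Without Control replicates 7 and 8 1 of these markers rose and none fell. Of 4 mast cell and basophil markers 1 rose, Kit (0.90 ± 0.12), and 1 fell, Hdc (-0.58 ± 0.18), the histidine decarboxylase that makes histamine, whose call ended without Control replicates 7 and 8 (-0.35). Among the larger log2 rises over all genes were Pde6b, known as a subunit of the phosphodiesterase of rod photoreceptors, and Emp1, an epithelial membrane protein. Pde6b ran from 0 to 0.655 CPM (median 0.422) in Control and from 24 to 31.5 CPM (median 27) in Cirrhosis (6.14 ± 0.32) and Emp1 ran from 0.938 to 2.69 CPM (median 1.87) in Control and from 28.8 to 75.8 CPM (median 56.2) in Cirrhosis (4.85 ± 0.40). The 6 Cirrhosis libraries of both genes lay above all 6 Control libraries.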
